A study of Rattus norvegicus with 6 samples.

Results

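Amino acid transporter families of the rat were examined in cultured stem cells of skeletal muscle that had been given cholesterol, a fatty acid or serum. The carriers were all probe sets whose single annotated gene symbol belongs to the solute carrier families Slc1, Slc7, Slc36, Slc38 or Slc43, or is Slc3a2. This rule found 41 probe sets for 41 genes, 1 each, of 18166 named genes on the array, and these are all 41 genes of that naming pattern in the RefSeq gene table of assembly GRCr8. Of these genes, 8 are known to be linked to the transcription factor ATF4 and are compared with the other 33: Slc1a4, Slc1a5, Slc3a2, Slc7a1, Slc7a3, Slc7a5, Slc7a11 and Slc38a2.

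The series holds 6 libraries with 1 array each, all from males and all isolated by plating, and it has no replicates. The cholesterol library received 100 mg/dl cholesterol carried by cyclodextrin. The fatty acid library is read as the sodium palmitate treatment that the protocol names, with no dose stated. The remaining titles are LZ serum, OZ serum, low glucose control and high glucose control. Strain, age, serum amount and glucose concentration are unstated, as is whether any control held cyclodextrin. Without replicates there is neither an error nor a test, and a difference between libraries cannot be assigned to their conditions.

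A cell takes up amino acids through several carrier systems that overlap in substrate. Carriers of the Slc38 family and the Slc7 carriers called CATs load the cell with glutamine, small neutral or cationic amino acids, and exchangers such as LAT1 then trade intracellular amino acids for leucine and other large ones. Some light chains of the Slc7 family reach the membrane only when bound to the heavy chain Slc3a2, also known as CD98. When amino acids are short or the endoplasmic reticulum is stressed, kinases phosphorylate the initiation factor eIF2alpha, translation of ATF4 goes up, and ATF4 raises transcription of carriers and of enzymes of amino acid synthesis. In muscle, leucine uptake and glutamine stores feed the mTORC1 kinase and protein synthesis.

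ATF4 binds a composite site, the C/EBP-ATF response element, whose core is TGATGNAA. RefSeq promoter windows, from 250 bases before to 50 after the gene start in GRCr8, were found for 31 of the 41 genes. The core occurred on either strand in 3 of these 31 genes, and in 2 of the 6 ATF4-linked carriers that had a window. Among all 33469 windows of this length 3.98% held it. Counted per gene, as for the carriers, 4.16% of all 27457 genes with a window held it. Among the genes past the signal filter described in the next paragraphs 2.25% did. The windows of the 3 carriers are shown because they hold the letters of the site, which are in capitals, at chr12:11664238-11664537 on the plus strand for Slc7a1, chr14:98761513-98761812 on the minus strand for Slc1a4 and chr7:129681352-129681651 on the minus strand for Slc38a1.
Slc7a1: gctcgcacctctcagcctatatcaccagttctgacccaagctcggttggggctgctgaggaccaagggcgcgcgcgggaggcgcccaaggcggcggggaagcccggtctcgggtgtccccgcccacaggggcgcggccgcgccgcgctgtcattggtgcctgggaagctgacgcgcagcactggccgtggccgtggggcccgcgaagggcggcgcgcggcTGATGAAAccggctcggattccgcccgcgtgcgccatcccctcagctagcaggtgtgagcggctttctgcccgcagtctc
Slc1a4: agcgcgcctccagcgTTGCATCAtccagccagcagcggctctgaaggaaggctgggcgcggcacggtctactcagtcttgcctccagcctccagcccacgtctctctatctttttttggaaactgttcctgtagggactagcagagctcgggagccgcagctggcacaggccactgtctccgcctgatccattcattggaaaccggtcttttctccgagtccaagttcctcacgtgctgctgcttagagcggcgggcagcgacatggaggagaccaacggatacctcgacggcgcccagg
Slc38a1: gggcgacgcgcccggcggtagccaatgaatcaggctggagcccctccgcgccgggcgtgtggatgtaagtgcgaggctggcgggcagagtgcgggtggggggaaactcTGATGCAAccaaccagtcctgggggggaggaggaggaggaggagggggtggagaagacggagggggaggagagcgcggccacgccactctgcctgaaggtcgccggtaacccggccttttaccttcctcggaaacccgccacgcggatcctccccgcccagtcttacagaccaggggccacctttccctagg
The match in Slc7a1 lay at bases -30 to -23 from the start, that in Slc1a4 at -235 to -228, where it reads in the opposite direction to the gene, and that in Slc38a1, which is not on the ATF4-linked list, at -142 to -135. Slc7a5, Slc7a11, Slc38a2 and Slc3a2 had windows without these letters, and Slc7a3, Slc7a2, Slc1a5 and Slc1a1 had no window in the table. A match is a description of letters and not of binding.

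Intensities were deposited on a linear scale and are given here as log2. Median intensity over 36685 probe sets ran from 104.6 to 109.2 across the libraries. A gene passed the signal filter when its mean over the 6 arrays reached log2 6.74, the median over all probe sets and arrays, which 11540 genes did. Of the carriers, 29 passed, including all 8 ATF4-linked ones. Over the genes past the filter, the median absolute log2 difference was 0.09 between the serum libraries and 0.14 between the controls, and 95% of genes differed by less than 0.31 and 0.48. With no replicates, these distances serve as a rough gauge of spread. The one between the controls also contains the effect of glucose, and the one between the serum libraries contains any effect of the serum type. LZ serum and the high glucose control lay closer still, at a median of 0.08, with 95% of genes differing by less than 0.27. Of 10 markers of muscle stem cells, 5 passed: Met, at a mean log2 intensity of 10.44, Pax3 (8.18), Itga7 (7.70), Pax7 (7.05) and Des (6.92). Myf5, Myod1, Myog, Cdh15 and Vcam1 lay under that median. All 9 measured mesenchymal markers passed the filter. The log2 of their summed linear intensity was 15.38 with fatty acid and 15.62 with cholesterol, against 15.73 to 15.82 elsewhere. For muscle stem cell markers this measure ran from 11.16 with fatty acid to 11.40 with LZ serum. From the macrophage and leukocyte list, Cd14 and Cd68 were the 2 of 9 that passed. The log2 of the list's summed linear intensity was 10.81 with cholesterol, 9.70 with fatty acid and between 9.90 and 10.24 in the other libraries. Ptprc, Csf1r, Itgam and Adgre1 lay below the median throughout. All 4 measured glial markers passed, with S100b highest at a mean of 10.37, as did 2 of 5 keratinocyte and 0 of 4 endothelial markers. Of all 18166 named genes, 11540 passed, so passing alone does not mark a cell type. The part of these marker differences in the carrier values was not tested. In such bulk RNA, fewer cells of a type and less RNA per cell cannot be told apart.

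A gene is said to be lower than both controls when it was below each of them, and its value is then the smaller of these log2 differences. Cationic amino acid carriers held the carriers that differed most between the libraries. Slc7a3, or CAT3, takes up arginine and lysine. Its log2 intensity was 8.40 in the high glucose control, 8.14 in the low glucose control, 8.32 with LZ serum, 8.18 with OZ serum, 6.82 with cholesterol and 6.09 with fatty acid. Both lipid libraries lay below the other libraries, which themselves lay close together. The difference from the nearer control was 2.51-fold with cholesterol and 4.15-fold with fatty acid, and 73 of the 11540 genes past the filter had a larger range over the 6 arrays. Both lipid intensities were close to that median or under it, and the sizes of the folds are less certain there. With an offset of 32 added before log2, the differences were -1.12 and -1.65 instead of -1.33 and -2.05.

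Slc7a2, or CAT2, carries the same amino acids and is not on the ATF4-linked list. Its log2 intensity was 8.65 in the high and 8.62 in the low glucose control, 8.44 with LZ serum, 8.31 with OZ serum, 7.20 with cholesterol and 7.05 with fatty acid. It was thus low in the same libraries as Slc7a3, by 2.67-fold with cholesterol and 2.96-fold with fatty acid, and the controls differed by 0.04. Slc7a1, or CAT1, the widely expressed arginine and lysine carrier, followed another pattern, at 10.42 in the high and 10.80 in the low glucose control, 10.54 and 10.59 with LZ and OZ serum, 9.80 with cholesterol and 10.82 with fatty acid. Cholesterol was the lowest library, 1.53-fold below the nearer control, whereas fatty acid lay beside the low glucose control. Slc7a4, a relative of the CATs with no assigned substrate, was at 8.04 and 8.19 in the high and low glucose controls, 8.12 and 8.11 with LZ and OZ serum, 8.42 with cholesterol and 8.02 with fatty acid. Cholesterol was its highest library. Slc7a14, a lysosomal relative, was at 6.92 with cholesterol against 7.18 to 7.47 elsewhere. With cholesterol, 4 of these 5 genes were thus lower than both controls and 1 was higher, where 33.6% of all genes past the filter were lower and 36.3% higher.

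Slc7a2 and Slc7a3 were the only 2 carriers at least 2-fold lower than both controls with cholesterol, where 0.806% of all genes past the filter were, and the same 2 carriers were at least 2-fold lower with fatty acid, where 2.01% of all genes were. The lipid comparisons share their controls, so these counts are not independent of each other. No carrier was at least 2-fold higher with cholesterol (0.381% of all genes), and Slc1a1 was with fatty acid (0.641%). Without the signal filter the counts over all 41 carriers were the same.

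**Figure D1:**
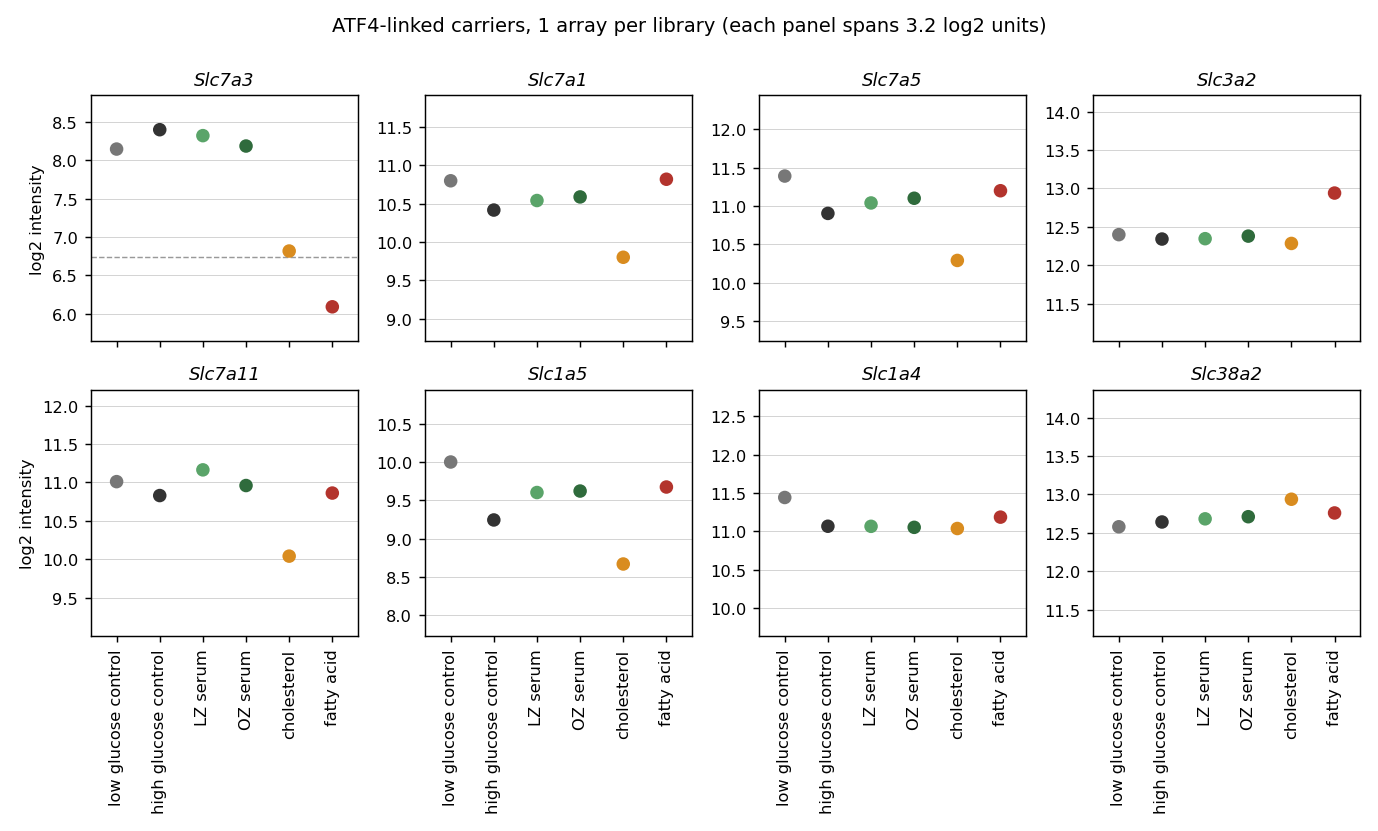
Log2 intensity (vertical axis) of the 8 ATF4-linked carriers in the 6 libraries (horizontal axis), 1 array each, with a panel per gene on axes of equal span. The dashed line in the Slc7a3 panel marks log2 6.74, the signal filter. Cholesterol is the lowest library for Slc7a1, Slc7a5, Slc3a2, Slc7a11, Slc1a5 and Slc1a4, fatty acid is the lowest for Slc7a3, and cholesterol is the highest for Slc38a2.

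Of the 6 heteromeric exchanger genes past the filter, 5 were lower than both controls with cholesterol and Slc7a8 was higher (33.6% and 36.3% of all genes). Among the 5, Slc3a2 and Slc7a7 had values of only -0.06 and -0.08. Slc3a2, the heavy chain, was at log2 12.34 in the high and 12.40 in the low glucose control, 12.35 and 12.38 with LZ and OZ serum, 12.28 with cholesterol and 12.94 with fatty acid. The fatty acid library stood above the other libraries, which lay between 12.28 and 12.40, and exceeded the nearer control 1.46-fold. Slc7a5, or LAT1, is the light chain that brings in leucine, and it was at 10.90 and 11.39 in the high and low glucose controls, 11.04 and 11.10 with LZ and OZ serum, 10.29 with cholesterol and 11.20 with fatty acid. Cholesterol was lowest, at -0.61 from the high and -1.10 from the low glucose control, and fatty acid lay between the controls. The cystine and glutamate exchanger Slc7a11, or xCT, which supplies cysteine for glutathione, was at 10.83 and 11.01 in the high and low glucose controls, 11.16 and 10.96 with LZ and OZ serum, 10.04 with cholesterol and 10.86 with fatty acid. It was 1.73-fold lower with cholesterol and lay between the controls with fatty acid.

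Among the other light chains, Slc7a8, or LAT2, an exchanger of neutral amino acids, was highest with cholesterol. Its log2 intensity was 7.96 with cholesterol, 7.51 with fatty acid, 7.19 and 7.12 with LZ and OZ serum, and 6.80 and 7.46 in the high and low glucose controls. The cholesterol difference was 1.16 from the high but 0.51 from the low glucose control, so its size depended on the control. LAT2 therefore lay on the opposite side of the controls from LAT1 in the cholesterol library. Slc7a6 and Slc7a7, the light chains that exchange cationic for neutral amino acids, were lower than both controls in both lipid libraries. Slc7a6 stood at -0.21 for cholesterol and -0.15 for fatty acid, and its controls themselves differed by -0.19. Slc7a7 stood at -0.08 and -0.35.

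Slc1a5, or ASCT2, an exchanger of glutamine and small neutral amino acids, varied between the controls as well. It was at log2 9.24 in the high and 9.999 in the low glucose control, 9.60 and 9.62 with LZ and OZ serum, 8.67 with cholesterol and 9.67 with fatty acid. The controls differed by -0.75, the largest difference of any carrier between them, and cholesterol was lower than the high glucose control by -0.57 and than the low glucose control by -1.33. Slc1a4, or ASCT1, which exchanges alanine, serine and cysteine, was at 11.07 and 11.44 in the high and low glucose controls, 11.07 and 11.05 with LZ and OZ serum, 11.04 with cholesterol and 11.19 with fatty acid. Only the low glucose control stood apart there.

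Of the 3 glutamate carriers of the Slc1 family past the filter, Slc1a1 and Slc1a3 were higher than both controls with fatty acid (40.4% of all genes). Slc1a1, or EAAT3, takes up glutamate and aspartate and can also take up cysteine. Its log2 intensity was 8.59 with fatty acid, 7.28 with cholesterol, 7.43 and 7.39 in the high and low glucose controls and 7.41 and 7.40 with LZ and OZ serum. Fatty acid was 2.24-fold above the nearer control, and the other libraries spanned from 7.28 to 7.43. Slc1a3, or EAAT1, with related substrates, was at 9.73 with fatty acid and 9.48 with cholesterol against 9.19 and 8.79 in the high and low glucose controls and 8.98 and 8.96 with LZ and OZ serum. It was higher than both controls in both lipid libraries, by 0.53 with fatty acid and 0.28 with cholesterol, and the controls themselves differed by 0.41. Slc1a7, a carrier known from retina, ranged from 7.03 to 7.34 over the libraries.

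**Figure D2:**
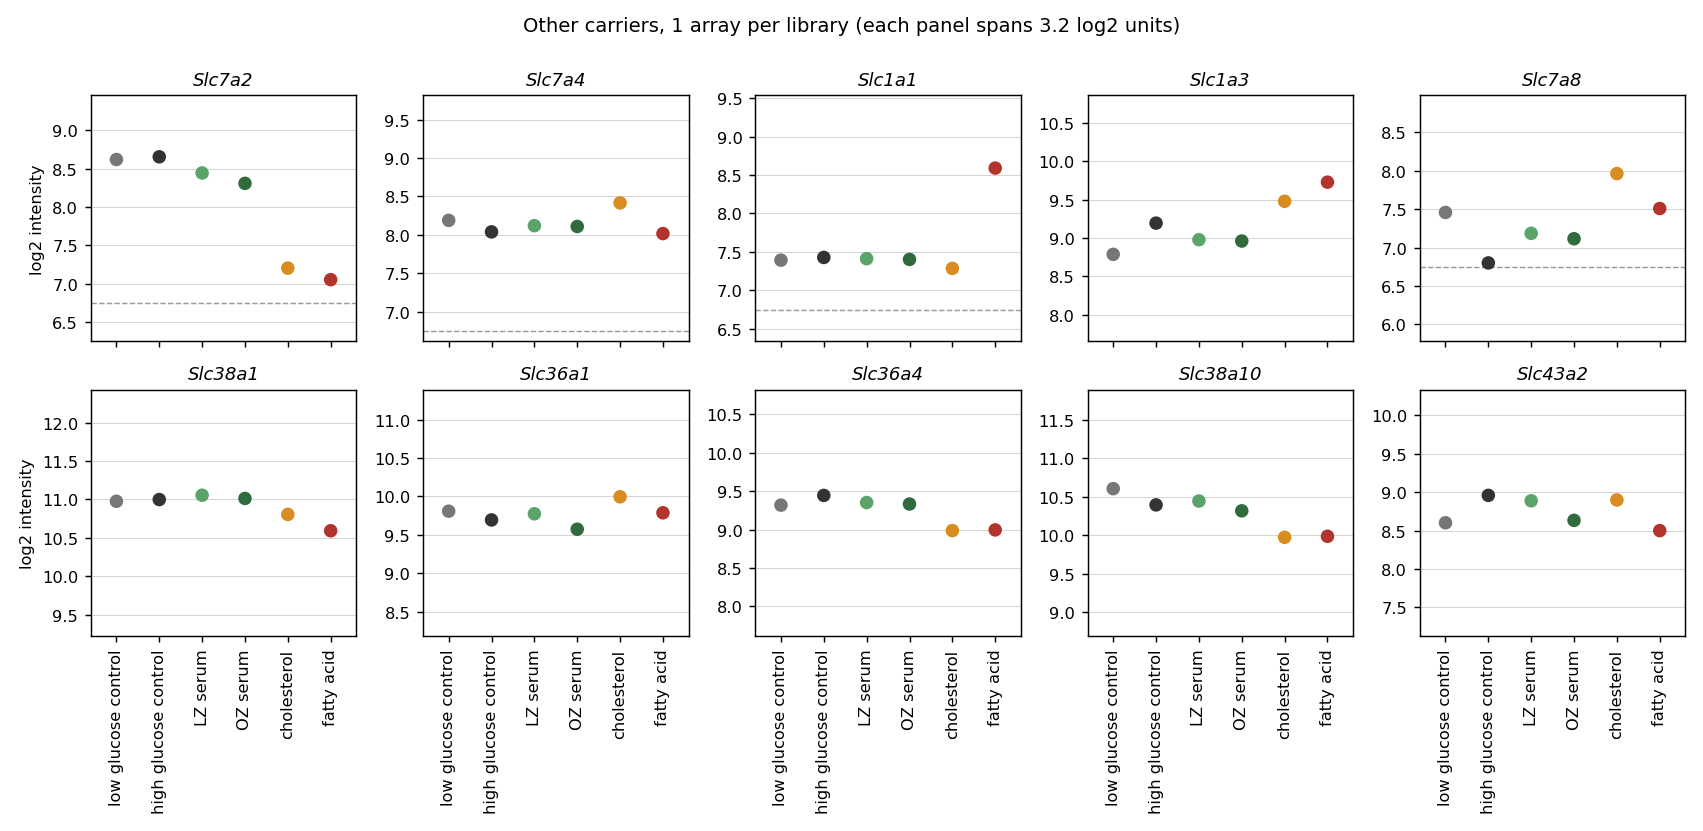
Log2 intensity (vertical axis) of 10 carriers outside the ATF4-linked list in the 6 libraries (horizontal axis), 1 array each, on axes of equal span, with the signal filter dashed where it falls inside a panel. Slc7a2 is low in both lipid libraries and Slc1a1 is high with fatty acid, while Slc36a1, Slc36a4, Slc38a1 and Slc43a2 each range over at most 0.46 log2 units.

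In the Slc38 family of sodium-coupled neutral carriers, Slc38a2, or SNAT2, a carrier of small neutral amino acids whose transcription is known to go up on amino acid shortage, was the 1 ATF4-linked carrier above both controls with cholesterol. Its log2 intensity was 12.64 and 12.58 in the high and low glucose controls, 12.68 and 12.71 with LZ and OZ serum, 12.94 with cholesterol and 12.76 with fatty acid. The value with cholesterol was 0.30, so the difference was small in size. Slc38a1, or SNAT1, a glutamine carrier, was at 11.00 and 10.97 in the controls, 11.05 and 11.01 with LZ and OZ serum, 10.80 with cholesterol and 10.59 with fatty acid. It was lower than both controls with cholesterol (-0.17) and fatty acid (-0.38), and Slc38a4, or SNAT4, was lower likewise (-0.15 and -0.50).

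The remaining members of that family lay on either side of the controls. Slc38a7, a lysosomal glutamine carrier, was higher than both controls with cholesterol, by 0.33, and lay between the controls with fatty acid. Slc38a9, the lysosomal arginine sensor of the mTORC1 pathway, was higher by 0.14 and 0.13, but the controls differed by 0.34. Slc38a6 was higher by 0.42 with cholesterol and 0.24 with fatty acid. Slc38a10 was lower by -0.42 and -0.41, at 9.97 and 9.99 against 10.39 and 10.61 in the high and low glucose controls. Slc38a3 and Slc38a8 had means close to the filter and stayed between 6.60 and 6.93.

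Proton-coupled carriers of the Slc36 family differed little. Slc36a1, or PAT1, found on lysosomes and at the cell surface, was at log2 9.995 with cholesterol, 9.79 with fatty acid, 9.69 and 9.81 in the high and low glucose controls and 9.77 and 9.57 with LZ and OZ serum. Slc36a4, or PAT4, was at 8.99 with cholesterol and 8.996 with fatty acid against 9.44 and 9.32 in the controls and 9.35 and 9.33 with LZ and OZ serum, so that both lipid libraries were lower by about the same amount. Of the facilitated leucine carriers, Slc43a2, or LAT4, was at 8.96 and 8.60 in the high and low glucose controls, 8.89 and 8.63 with LZ and OZ serum, 8.90 with cholesterol and 8.50 with fatty acid. Slc43a1, or LAT3, was at 7.14 and 7.56 in those controls, 7.21 with each serum, 7.42 with cholesterol and 7.03 with fatty acid. Both were below each control with fatty acid and between the controls with cholesterol.

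**Figure D3:**
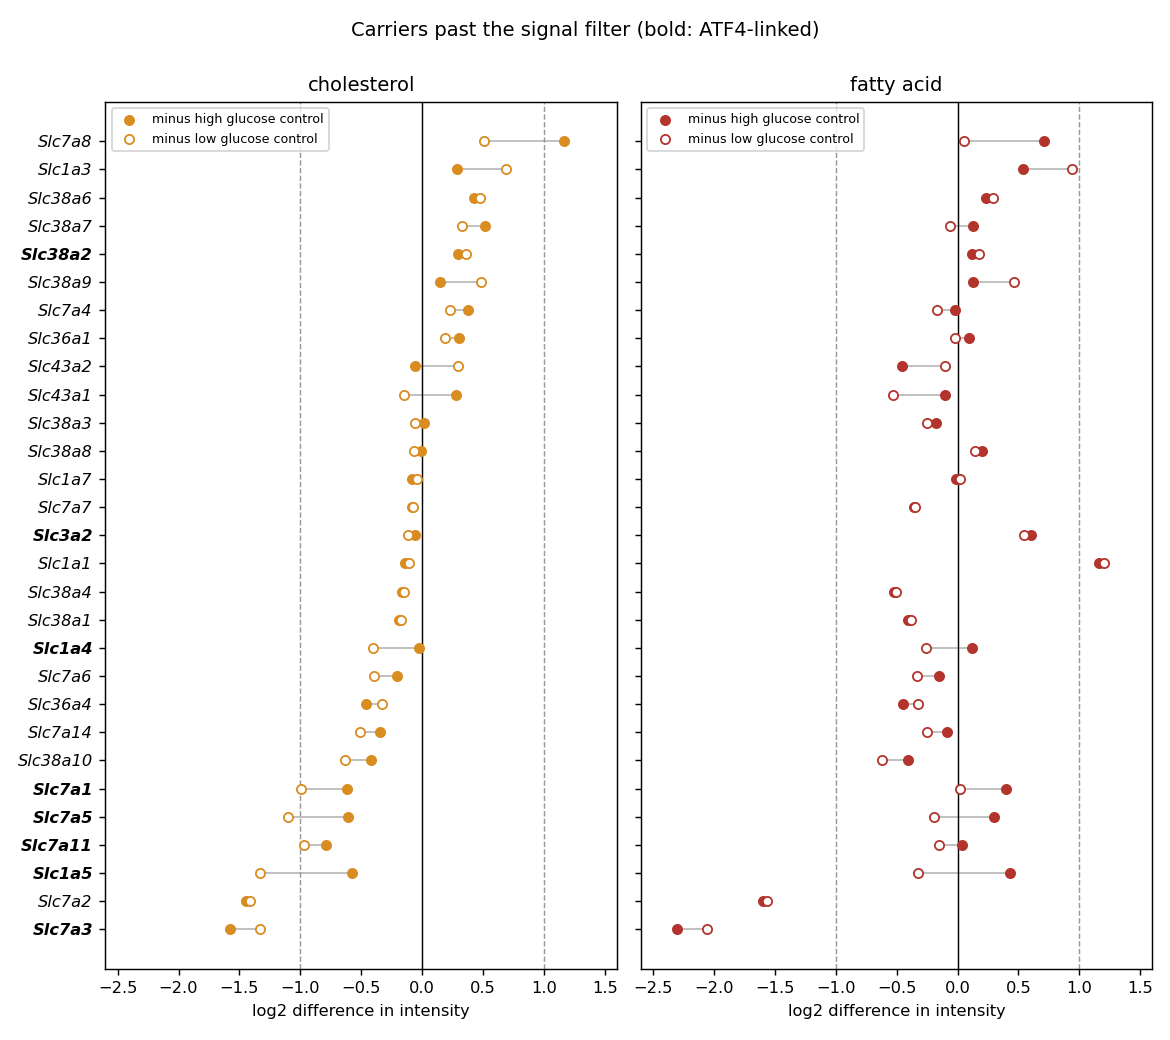
Log2 difference in intensity (horizontal axis) of the cholesterol library (left) and the fatty acid library (right) from the high glucose control (filled points) and the low glucose control (open points) for the 29 carriers past the filter, with ATF4-linked carriers in bold and dashed lines at a 2-fold difference. Slc7a3 and Slc7a2 lie beyond 2-fold on the low side in both lipid libraries, and Slc1a1 lies beyond it on the high side with fatty acid.

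Set against each other, ATF4-linked and other carriers parted with cholesterol, although the sets also differ in signal level. Apart from Slc7a3 (7.66), ATF4-linked carriers had mean log2 intensities from 9.47 to 12.72. The others past the filter ran from 6.77 to 10.90, and the part of signal level in the differences was not tested. Of the 8 ATF4-linked carriers, 7 were lower than both controls and 1, Slc38a2, was higher, where 33.6% of all genes past the filter were lower and 36.3% higher. Among the 7, Slc1a4 and Slc3a2 had values of only -0.03 and -0.06. Both are smaller in size than the median distance of 0.09 between the serum libraries. Of the 21 other carriers past the filter, 11 were lower, 7 were higher and 3 lay between the controls. At 1.5-fold, 4 ATF4-linked carriers were lower (Slc7a1, Slc7a3, Slc7a5 and Slc7a11) and 1 other was (Slc7a2), with 2.04% of all genes. The median of the mean difference from both controls was -0.83 for the ATF4-linked and -0.04 for the other carriers, beside 0.01 for all genes past the filter. Without Slc7a3 the ATF4-linked median was -0.81. With all 8 carriers it depended on the control, at -0.59 against the high glucose control alone and -0.98 against the low one.

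With fatty acid that separation was not seen in the medians, which were 0.05 for ATF4-linked carriers, -0.17 for the others and 0.00 for all genes. The ATF4-linked median was 0.21 against the high glucose control alone and -0.17 against the low one. Of the 8, 3 were higher than both controls (40.4% of all genes), 1 was lower (39.7%) and 4 lay between them, and under centring on the median 2 were higher and 2 lower. Those above were Slc3a2, Slc38a2 and, by 0.02, Slc7a1, and the one below was Slc7a3. Among the 21 others, 12 were lower and 6 higher. Apart from Slc7a3, the mean differences of ATF4-linked carriers from both controls lay between -0.07 and 0.57. Slc7a3 was at -2.18 on this measure, a size that is uncertain because its fatty acid intensity, log2 6.09, was under the median of 6.74.

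Compared directly, 3 carriers were at least 2-fold lower with cholesterol than with fatty acid, where 0.901% of all genes were. They were Slc1a1 (-1.31), Slc7a1 (-1.02) and Slc1a5 (-1.002), and the last 2 fell short of 2-fold, at -0.99 and -0.95, once the offset of 32 was added. None was 2-fold higher (1.92% of all genes). Slc7a5 followed at -0.91, Slc7a11 at -0.82, Slc3a2 at -0.66 and, with a small difference, Slc1a4 at -0.15. Slc1a1 aside, these are 6 of the 8 ATF4-linked carriers, and 48.0% of all genes were lower with cholesterol. Slc7a3 and Slc38a2 were higher, at 0.73 and 0.18 (51.9% of all genes). At 1.5-fold, 6 carriers of all families were lower (4.31%) and 1 was higher, Slc7a3 (7.43%). The medians were -0.74 for the ATF4-linked and 0.19 for the other carriers, beside 0.01 for all genes.

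Between the controls, 6 of 8 ATF4-linked carriers were lower with high glucose, and 2 were higher, where 51.1% of all genes were lower and 48.9% higher, with a median of -0.28 against 0.01 for the other carriers and -0.01 for all genes. The differences were -0.75 for Slc1a5, -0.49 for Slc7a5, -0.38 for Slc7a1, -0.37 for Slc1a4, -0.18 for Slc7a11 and -0.06 for Slc3a2. No carrier reached 2-fold, which 0.251% of all genes exceeded on the high side and 0.104% on the low side. At 1.5-fold, Slc1a5 and Slc7a8 were lower with high glucose (1.11% of all genes). The 6 ATF4-linked carriers that were lower with high glucose were below both controls with cholesterol. Their larger distance from the low glucose control follows by arithmetic and is no separate result. The same holds for Slc7a8, which was above both controls with cholesterol, and its larger distance from the high glucose control. Slc7a3 was 0.25 higher with high glucose.

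The serum libraries differed little in these families. OZ serum against LZ serum gave medians of 0.02 for ATF4-linked and -0.02 for other carriers, beside -0.03 for all genes, and the largest absolute difference was 0.31, for Slc1a7. The split of ATF4-linked carriers there, 5 higher and 3 lower (41.9% and 58.1% of all genes), became 2 and 6 under centring on the median, so it has no stable direction. Both serum libraries were above both controls in 2 carriers past the filter (8.83% of all genes) and below both in 2 (19.7%), none of them by 2-fold (0.0% of all genes in each direction). Between the serum libraries no carrier reached 2-fold either, where 0.0% of all genes were higher and 0.026% lower.

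Over the 6 libraries, cholesterol was the lowest for 6 of 8 ATF4-linked carriers, where it was the lowest for 17.5% of all genes past the filter, and for 6 of the 21 other carriers. For Slc1a4 and Slc3a2 it lay only -0.03 and -0.06 from the high glucose control. Fatty acid was the lowest for 8 of those 21, and for 29.0% of all genes. The low glucose control was the highest library for 3 ATF4-linked carriers, Slc1a4, Slc1a5 and Slc7a5, where it was the highest for 17.7% of all genes.

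**Figure D4:**
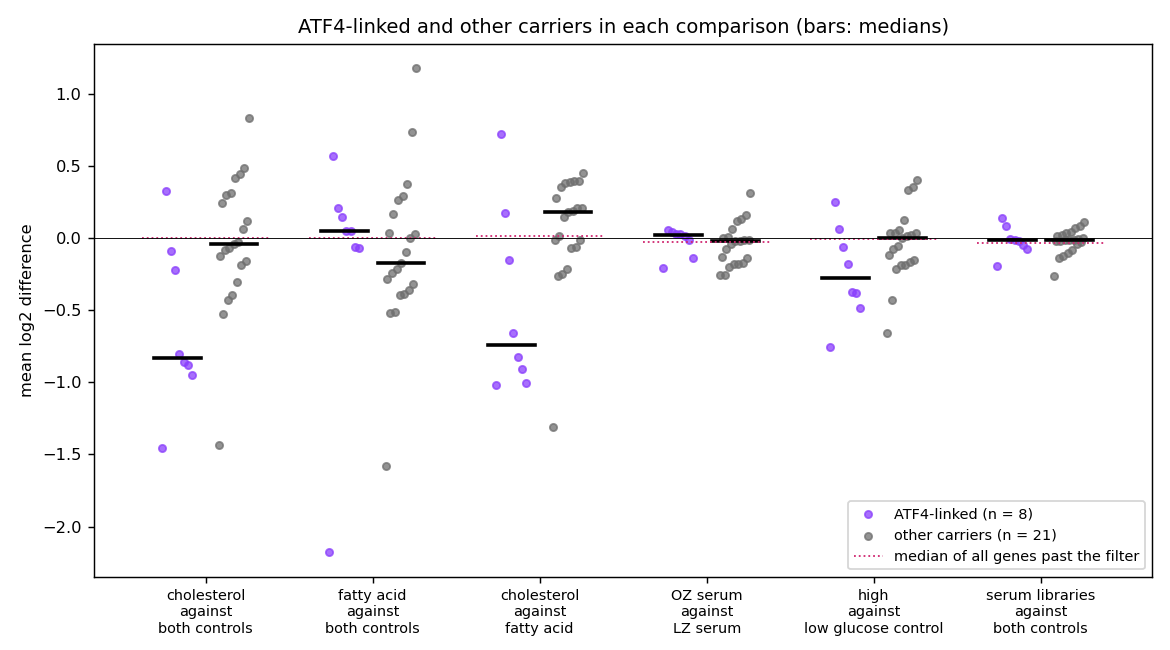
Mean log2 difference (vertical axis) of the 8 ATF4-linked carriers (purple) and the 21 other carriers past the filter (grey) in each of the 6 comparisons (horizontal axis), with black bars at the medians of each set and a dotted line at the median of all genes past the filter. The ATF4-linked median is -0.83 with cholesterol against the controls and 0.05 with fatty acid.

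Other genes known as ATF4 targets were mostly lower than both controls in both lipid libraries. With cholesterol, 25 of the 31 targets outside the carrier families that passed the filter, of 32 measured, were lower than both controls and 3 were higher, with a median of -0.40. Over all genes past the filter, 33.6% were lower and 36.3% higher. With fatty acid, 19 of the 31 were lower and 8 higher, with a median of -0.27, beside 39.7% and 40.4% of all genes. Both medians depended on the control. Taking the high glucose control alone gave -0.32 for cholesterol and -0.18 for fatty acid. The low glucose control alone gave -0.51 and -0.50. The controls themselves also differed in these targets. High glucose was below low glucose for 28 of the 31 and above it for 3, at a median of -0.22. Those shares were 51.1% and 48.9% over all genes. Atf4 itself was at log2 12.24 with cholesterol, 12.64 with fatty acid, and 12.48 and 12.66 in the high and low glucose controls, and the abundance of its transcript does not show its translation. Asns, the asparagine synthetase, was at -0.78 with cholesterol and -0.57 with fatty acid. The values of Pycr1, a reductase of proline synthesis, were -0.80 and -1.44. Aldh1l2, a folate enzyme of mitochondria, stood at -1.18 for cholesterol and -1.74 for fatty acid, and Trib3, a pseudokinase that binds AKT, at -1.11 and -0.25. In contrast, Ddit3, or CHOP, a transcription factor of the stress response, was higher with fatty acid by 0.70, and Atf3, another stress factor, by 1.35 with cholesterol and 2.13 with fatty acid. Of the kinases that phosphorylate eIF2alpha, Eif2ak3, or PERK, was higher with fatty acid by 0.19, and Eif2ak4, or GCN2, was lower by -0.51. Of 28 of these targets with a promoter window, 9 held TGATGNAA, as did 4.16% of all genes with a window.

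Slc7a11 is also a target of NRF2, the factor of the antioxidant response. Of 11 measured NRF2 targets including Slc7a11, 7 were higher and 4 lower than both controls with cholesterol (36.3% and 33.6% of all genes), with a median of 0.28. With fatty acid, 10 were higher and 0 lower (40.4% and 39.7%), with a median of 0.84. Hmox1, a heme oxygenase, had values of 0.67 for cholesterol and 1.22 for fatty acid, and Srxn1, a sulfiredoxin, of 0.35 and 1.20. Slc7a11 had the lowest mean difference of that list with cholesterol, at -0.88. With fatty acid it was also the list's lowest, at -0.06, and the 1 target that was not above both controls.

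Genes that handle arginine after its uptake included another low one. Arg2, the mitochondrial arginase, was at log2 8.83 and 8.53 in the high and low glucose controls, 8.73 and 8.49 with LZ and OZ serum, 6.95 with cholesterol and 7.13 with fatty acid, lower by -1.58 and -1.40. Its library order was thus like that of Slc7a2 in that both lipid libraries stood below the others. Of 14 enzymes of glutamine, arginine and glutathione metabolism past the filter, it was the only one beyond 2-fold. Outside the families, Slc6a6, the taurine carrier, was lower with fatty acid by -1.43 and with cholesterol by -0.11, and Slc15a4, a lysosomal carrier of histidine and peptides, was higher with fatty acid by 0.81. The list of mTORC1 amino acid sensing had 24 measured entries. Its entry Wdr59 was matched through a synonym to Fa2h, which is not an mTORC1 gene, and all counts and medians of the list include it. With cholesterol, 16 entries were higher and 5 lower than both controls (36.3% and 33.6% of all genes), with a median of 0.12. With fatty acid, 9 were higher and 12 lower, with a median of -0.04, and the share that was higher is near the 40.4% of all genes. Fnip2, a partner of folliculin, was higher with cholesterol by 0.82, and Sesn3, a sestrin, was lower with fatty acid by -1.20.

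**Figure D5:**
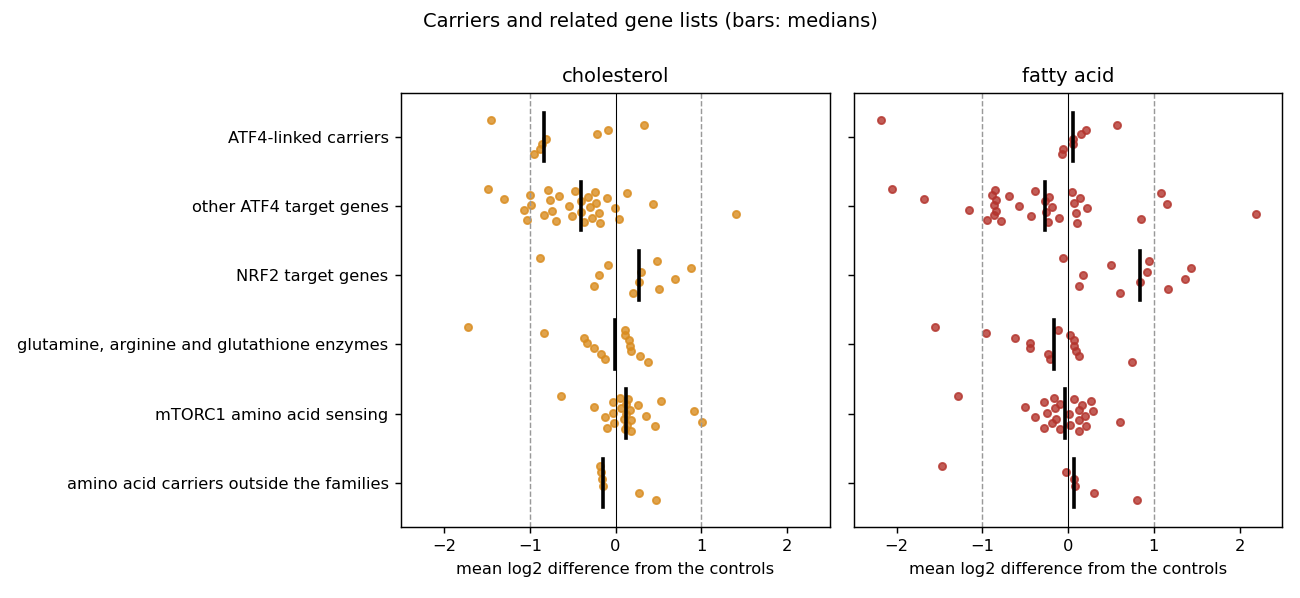
Mean log2 difference from both controls (horizontal axis) of genes past the filter in 6 lists (vertical axis) for the cholesterol library (left) and the fatty acid library (right), with black bars at the medians and dashed lines at a 2-fold difference. ATF4-linked carriers have a median of -0.83 with cholesterol and 0.05 with fatty acid, and NRF2 targets have medians of 0.28 and 0.84. The mTORC1 list includes Fa2h, to which its entry Wdr59 was matched through a synonym.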

How the data were processed

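RNA of 6 cultures was measured on the Affymetrix Rat Gene 2.0 ST platform, per the labels. The authors deposited 1 linear intensity per probe set and array. How probes were summarised, corrected for background or normalized is unstated. Medians were nearly equal, so no further scaling was applied, and a difference in total RNA per culture would not be visible. Log2 was taken with no offset. Platform annotation gave 1 gene to 18511 of 36685 probe sets. A gene with several probe sets (291 genes, none a carrier) took the one with the highest mean. Groups came from the sample titles. The number of arrays limits the precision and allows no test.

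Against several libraries, a gene's value is its log2 difference from the nearest one if it lies above or below them all, and 0 if it lies between them. Medians of lists use the mean of the differences. The members and lists were chosen with earlier results of these data known. List symbols were matched directly or through RefSeq synonyms, and 20 entries were not measured under 1 gene. The synonym match of Wdr59 to Fa2h joined different genes and was kept in the counts. Carriers named with all values are the ATF4-linked ones, those at 2-fold in any comparison and the 2 with the highest mean in each of 7 transport systems. Slc7a8, Slc7a14 and the remaining carriers with single values fall outside that rule and were chosen after their values were seen. Other genes are the up to 4 with the largest values in each list, with Atf4, Ddit3, Asns and the kinases of eIF2alpha. Alternatives were quantile normalization, median centring, cyclic loess, no filter, a stricter filter (highest array at or above log2 8.68), the mean of probe sets, 1.5-fold, an offset of 32, each control alone, the mean of the references, and leaving Slc7a11 out of the ATF4-linked list. Leaving out Slc7a3 was added after seeing the data. Gene counting was tested on simulated data with known changes. Python 3.11.15, numpy 2.4.6, pandas 2.3.3, matplotlib 3.10.9, R 4.3.3 and limma 3.58.1 were used.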

Additional observations from a re-analysis of the deposited data

How the results depend on the processing

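Of 174 values of counts and medians under the alternatives, 164 stayed within 1.5 times the count or within 0.24 of the median, the SD of the difference between the controls. The other 10 were counts. The ATF4-linked median with cholesterol went from -0.83 to -0.59 against the high glucose control alone, which only just stayed inside 0.24. That limit comes from the same controls, so it is lenient for the choice of control. Some of the 174 values could not change, so the 164 overstate how far the results were tried. No carrier has several probe sets, so taking their mean leaves carrier values as they were. All 8 ATF4-linked carriers pass the signal filter, so dropping it leaves their medians as they were. Counts over all genes follow in brackets, of 11540 unless stated. Carriers at least 2-fold lower than both controls with cholesterol numbered 2 (93). There were 0 of 16 carriers with the stricter filter (81 of 7212 genes) and 5 at 1.5-fold (235). Against the low glucose control alone there were 4 (125), where Slc1a5 and Slc7a5 were added. Carriers 2-fold higher with cholesterol numbered 0 (44), and 1 against the high glucose control alone (75), which was Slc7a8. With fatty acid, the stricter filter left 0 higher and 0 lower (69 and 194 of 7212 genes), since it removes Slc7a2, Slc7a3 and Slc1a1. Compared directly, carriers lower with cholesterol numbered 3 (104), and 6 at 1.5-fold (497) and 1 with the offset (83). Those higher numbered 0 (221), and 1 at 1.5-fold (857). Between the controls, 2 carriers were lower at 1.5-fold (128). Under the 3 other scalings no carrier turned from above both controls to below both, or the reverse, with either lipid, although some moved to or from between the controls. Of 492 values of single carriers, 17 moved by more than 0.24 and none that reached 2-fold reversed. The choice of filter and the mean of probe sets cannot move such a value. No paired analysis was possible because each group holds 1 array. For the same reason no replicate could be left out.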

Other observations

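The 12 carriers that did not pass the signal filter were Slc1a2, Slc1a6, Slc7a9, Slc7a10, Slc7a12, Slc7a13, Slc7a15, Slc36a2, Slc36a3, Slc38a5, Slc38a11 and Slc43a3. Near the median of all values an array cannot tell a weak transcript from none, so their differences have no clear reading. The largest value among them against both controls was 0.37, for Slc43a3, a purine nucleobase carrier, with fatty acid.

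Some carriers of a family lie next to each other in the genome. Slc38a1, Slc38a2 and Slc38a4 follow each other on chromosome 7 of GRCr8 with 0 other protein-coding genes between them. Their values did not run together: with cholesterol, Slc38a2 was at 0.30 while Slc38a1 was at -0.17 and Slc38a4 at -0.15. With fatty acid, the values were 0.12, -0.38 and -0.50. Slc36a1, Slc36a2 and Slc36a3 are also neighbours, on chromosome 10, and only Slc36a1 passed the filter there.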
